A study of Mus musculus with 8 samples.

Results

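The fibroblast growth factor (FGF) pathway and its feedback genes were followed in newborn mouse calvaria (skull-roof bone) with and without Girk3. The group holds 35 genes of 49315 gene IDs in the count table. They were chosen by symbol for their place in the pathway (ligands, receptors, co-receptors and binding proteins, adaptors, Sprouty and Spred inhibitors, and the Etv factors with Phlda1). No measured value entered the rule, but earlier results of these data were known when the genes were chosen. Each symbol matched 1 gene ID. The 8 libraries came from 4 wild-type and 4 Girk3 knockout (Girk3-/-) female C57BL6 mice aged 2 to 3 days, so strain, sex, age and tissue were shared by both groups. Whole calvaria were washed, frozen and homogenised, so the RNA is that of all cells in the piece of tissue. The labels name the knockout by its gene, without an allele, a Cre driver or litters. Kcnj9 encodes Girk3, a potassium channel subunit gated by G proteins, and the comparison asks how its loss shows in bone RNA.

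Most FGFs are secreted proteins that bind receptor tyrosine kinases together with heparan sulfate or a Klotho co-receptor. The activated receptor phosphorylates the adaptor FRS2, which leads through RAS to the kinase ERK, and ERK output includes genes that damp the same cascade. In the skull roof this pathway is known for its control of osteoblast differentiation and of suture patency, and activating mutations of its receptors cause premature suture fusion.

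Totals ran from 35.4 M to 54.3 M counts a library, and 3 counts, the floor used here, came to at most 0.0816 CPM (counts scaled to the TMM-adjusted total of the tested genes in a library). Knockout replicate 4, with the lowest total, held counts in 28520 genes, against 24545 to 25729 in the other libraries. Without it edgeR called 608 genes between the genotypes, against 234 with all 8 libraries. Kcnj9 itself held 0 to 4 counts in the wild-type and 2 to 9 in the knockout libraries, so at this depth it does not check the labels. Markers of bone-forming cells were abundant, with 10 osteoblast genes summing to between 147027 and 193252 CPM in every library and none at 0. Col1a1 and Col1a2 dominated that sum, at wild-type means of 85440 and 74751 CPM. Of the 10 genes, edgeR called Bglap lower in knockout (fold 0.716, adjusted p = 0.0383) and 9 neither way. DESeq2 also called Bglap lower, and limma-voom did not call it. Skeletal muscle RNA varied between libraries of the same genotype. The summed level of 16 muscle genes was 20.7 to 175 CPM in wild-type replicate 3 and knockout replicates 2 and 3, and 813 to 3122 CPM in the other 5 libraries. Results without those 3 libraries are therefore also given, for the 35 genes where that changes them and for the called genes of the wider pathway. They are not given for the marker genes in this paragraph. Without the 3 libraries edgeR called 8 genes in all, 6 of them lower in knockout. Of 10 macrophage genes, edgeR called 4 lower in knockout (Lyz2, Ctss, Cx3cr1 and Ccr2) and 6 neither way, beside 0.874% of all tested genes called lower. Their summed level was 613 to 790 CPM in wild type and 475 to 548 CPM in knockout. In such bulk samples fewer cells of a type and less RNA per cell cannot be told apart.

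Of the 30 genes that could be tested among the 35, 1 changed between the genotypes: the ligand gene Fgf7 fell in knockout, and none rose. With 17743 genes tested by edgeR's quasi-likelihood test, 30 of the 35 passed the filter on low counts, and the 1 call (adjusted p under 0.05) is set against 1.32% of all tested genes called, or 0.874% called lower and 0.445% called higher. Before adjustment 4 of the 30 had a p under 0.05 (1 higher, 3 lower), against 17.4% of all tested genes (8.29% higher, 9.11% lower). DESeq2 called 3 of the 30 (Fgf7 and Spry1 lower, Flrt3 higher), against 6.08% of the 15662 genes to which it gave an adjusted p (3.44% lower, 2.64% higher). By limma-voom 1 gene was called, again Fgf7, against 0.941% (0.654% lower). The median log2 change of the 30 genes was -0.03, beside -0.00 over all tested genes, with 14 above 0 and 16 below. For 23 of the 30 genes the 95% interval of the change lay within 1.5-fold either way, as it did for 63.7% of all tested genes.

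**Figure D1:**
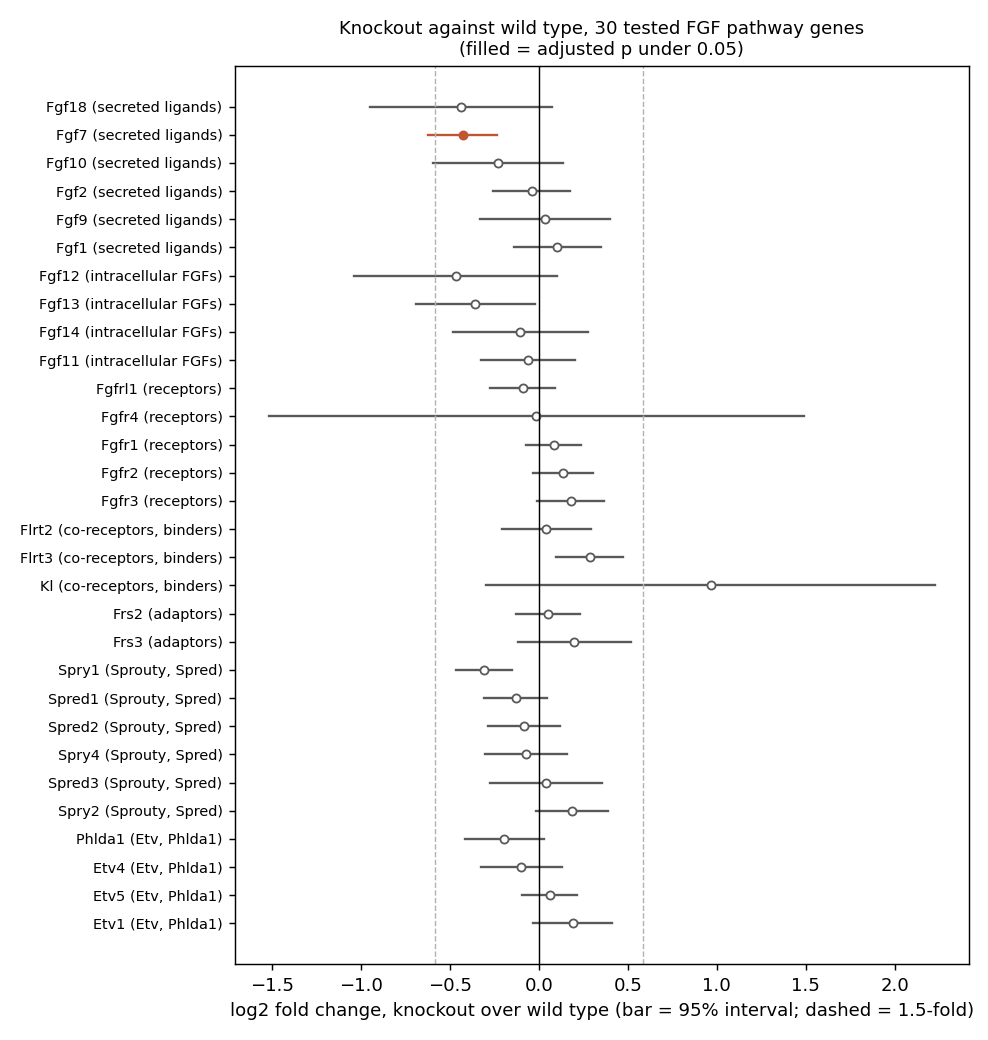
Log2 fold change of the 30 tested genes, knockout over wild type, on the horizontal axis, ordered by role, with bars for the 95% interval and dashed lines at 1.5-fold. The filled point is Fgf7 at -0.43, the 1 gene called, and the widest bars are those of Fgfr4 and Kl.

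Among the secreted ligands Fgf7 was the gene that fell. Fgf7 (ENSMUSG00000027208, chromosome 2 from 126034658 to 126091185, plus strand, GRCm38/mm10) encodes keratinocyte growth factor, which mesenchymal cells secrete and which acts on the epithelial splice form of FGFR2. The wild-type libraries held 13.0, 13.9, 12.7 and 13.1 CPM and the knockout libraries 10.8, 8.83, 9.99 and 9.49 CPM (replicates 1 to 4). Every knockout library lay below every wild-type library. The means were 13.2 ± 0.496 and 9.79 ± 0.847 CPM (SD, n = 4 each), a fold of 0.743 with a 95% interval of 0.649 to 0.849 and a log2 change of -0.43 ± 0.0889 (SE, edgeR adjusted p = 0.0361). The call rested on several libraries. Leaving out any 1 of the 4 wild-type libraries, knockout replicate 2 or knockout replicate 3 ended it, with adjusted p between 0.0406 and 0.143 over the 8 left-out libraries and a log2 change between -0.48 and -0.37. It was also lost without the 3 libraries low in muscle RNA (log2 change -0.38, adjusted p = 0.465, with 0.0325% of genes called lower) and with library totals in place of TMM scaling (adjusted p = 0.0586, with 0.558% of genes called lower). The macrophage sums given above moved in the same direction as Fgf7, and their part in its change was not tested.

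The other secreted ligands did not pass the test. Fgf2, the basic FGF of many mesenchymal cells, was at 23.6, 24.4, 31.4 and 29.98 CPM in the 4 wild-type mice and 26.0, 29.3, 25.0 and 25.9 CPM in the 4 knockouts, with the groups overlapping (log2 change -0.04, 95% interval -0.26 to 0.18). Nudt6 on the opposite strand covers 9.44% of the exon bases of Fgf2 and held up to 78 counts, against at least 953 for Fgf2. Fgf18, a ligand expressed by osteogenic cells and needed for normal calvarial bone formation, was at 4.66, 2.76, 3.76 and 2.77 CPM in the 4 wild-type mice and 2.19, 2.96, 1.76 and 3.40 CPM in the 4 knockouts. Its log2 change was as large as that of Fgf7, at -0.44, but its SE was 0.235 and the adjusted p 0.361, and the groups overlapped. Fgf1, Fgf9 and Fgf10 had log2 changes of 0.10, 0.03 and -0.23, with adjusted p from 0.513 to 0.94. Fgf10, which shares the FGFR2 splice form with Fgf7, was the lower of the pair per length: the ratio of Fgf7 to Fgf10 in RPKM (CPM per kilobase of exon) was between 3.91 and 5.51 in the wild-type and between 3.64 and 5.22 in the knockout libraries. Fgf5, Fgf16 and Fgf20 were below the filter. Fgf20 had no count in any library, Fgf5 at most 2, and Fgf16 at most 18, in knockout replicate 1 (exact permutation p = 0.971, two-sided, adjusted 0.971 over 3 genes below the filter with more than 3 counts in a library). With 4 libraries against 4, no such test can give a p under 0.0286.

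The 4 intracellular FGF homologous factors are not secreted and do not signal through FGF receptors: they bind voltage-gated sodium channels and are known chiefly from neurons and muscle. All had log2 changes below 0 and none passed. Fgf11 was the highest per length, at 8.95, 8.03, 7.82 and 8.76 CPM in the 4 wild-type mice and 9.18, 9.01, 6.78 and 7.13 CPM in the 4 knockouts. Fgf13 was at 9.09, 7.96, 6.48 and 5.94 CPM in the 4 wild-type mice and 6.32, 5.84, 6.19 and 4.62 CPM in the 4 knockouts (log2 change -0.36 ± 0.154, SE, adjusted p = 0.26). The groups of both genes overlapped, and wild-type replicate 1 was the highest library for Fgf13. The same library was also the highest for Fgf12, at 2.70 CPM, and held the largest sum of 10 neuron genes, 36.7 CPM against 11.3 to 27.5 CPM in the other libraries. The part of neuronal RNA in these values was not tested. Without wild-type replicate 1 the log2 changes of Fgf13 and Fgf12 were -0.24 and -0.32, against -0.36 and -0.47 with all 8. With any 1 library left out they ran from -0.45 to -0.24 for Fgf13 and from -0.59 to -0.30 for Fgf12. Fgf14 had a log2 change of -0.10.

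**Figure D2:**
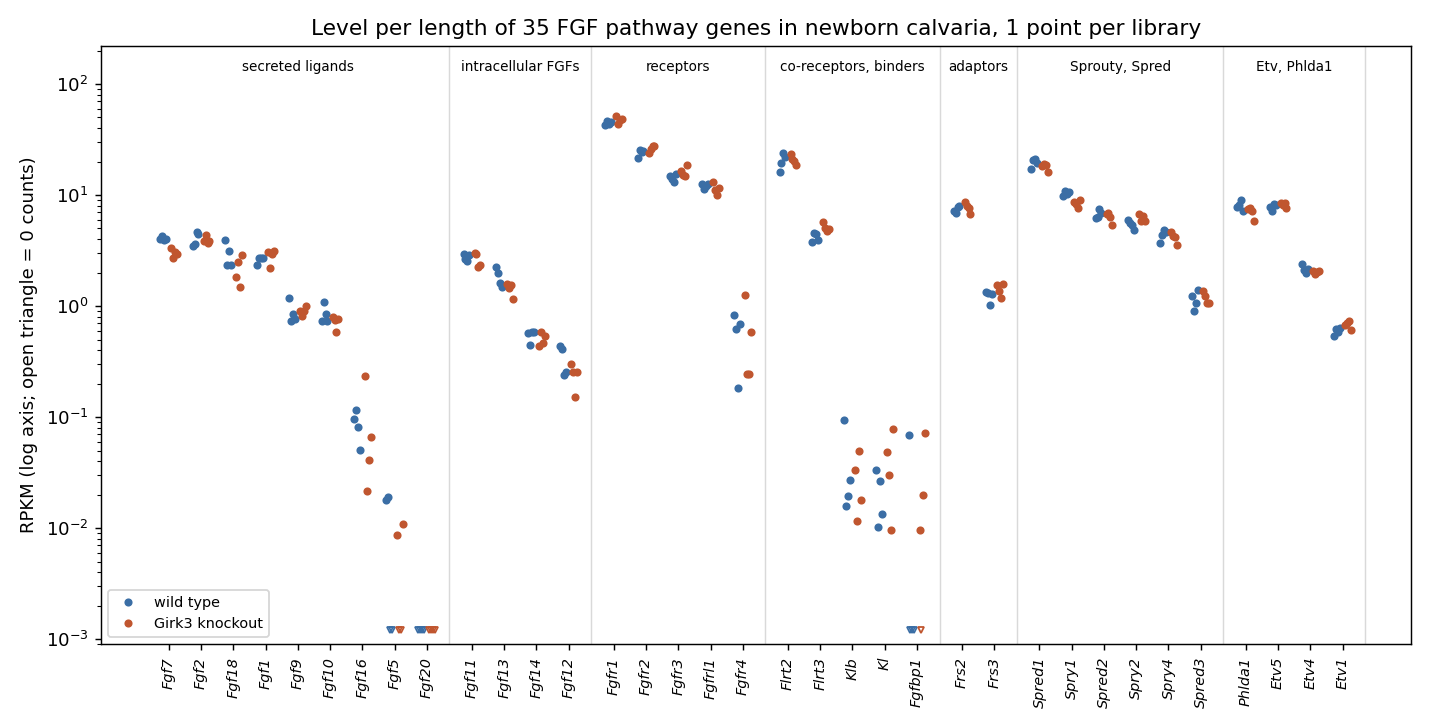
Level of all 35 genes by role, as RPKM (CPM per kilobase of merged exon) on a log axis, 1 point per library, with open triangles for libraries at 0 counts. Fgfr1 is the highest gene, and Fgf20 sits at 0 in all 8 libraries.

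Fgfr1 and Fgfr2 stood highest of the 35 genes per length, and none of the 5 receptor genes passed the test. The wild-type means were 44.8 ± 1.67 RPKM for Fgfr1 and 24.0 ± 1.80 RPKM for Fgfr2 (SD, n = 4 each). Next came the receptor-binding Flrt2 at 20.3 ± 3.37 RPKM and the inhibitor Spred1 at 19.6 ± 1.75 RPKM, which differed by less than their spread. The ligand genes were far lower, led by Fgf7 at 4.06 ± 0.153 RPKM and Fgf2 at 4.03 ± 0.579 RPKM, again closer than their spread. Fgfr1, the main receptor of mesenchymal cells, stood at 426, 460, 432 and 453 CPM in the 4 wild-type mice and 506, 430, 467 and 474 CPM in the 4 knockouts. Its log2 change was 0.08, with a 95% interval of -0.07 to 0.24. Fgfr2, whose activating mutations cause craniosynostosis, was at 220, 262, 252 and 256 CPM in the 4 wild-type mice and 247, 269, 287 and 286 CPM in the 4 knockouts (log2 change 0.14, interval -0.04 to 0.31). Both genes overlapped between the groups. Fgfr3, a receptor of cartilage and bone cells, was at 103 ± 7.52 CPM in the 4 wild-type mice and 116 ± 12.3 CPM in the 4 knockouts (SD, n = 4 each; log2 change 0.18, edgeR adjusted p = 0.309). An annotated gene on the opposite strand, G630022F23Rik, covers 13.9% of the exon bases of Fgfr3, but held at most 31 counts. Ctbp2, on the same strand as Fgfr2, covers 3.04% of its exon bases and held up to 3000 counts, against at least 9795 for Fgfr2. Fgfrl1, a receptor that lacks the kinase domain, was at 33.7 ± 1.64 and 31.7 ± 3.52 CPM (log2 change -0.09).

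Per length the order was Fgfr1, Fgfr2, Fgfr3 and Fgfr4 in all 8 libraries. Of the summed RPKM of the 4 receptors, Fgfr1 took 53.6 ± 0.469% of wild-type and 52.4 ± 2.00% of knockout levels (SD, n = 4 each). Fgfr2 took 28.6 ± 1.46% and 29.1 ± 2.35%, and Fgfr3 17.1 ± 1.23% and 17.9 ± 1.31%. The shares of Fgfr2 and Fgfr3 thus differed between the genotypes by less than the SD of either group. That of Fgfr1 differed by less than the knockout SD but by more than the wild-type SD. Fgfr2 exceeded Fgfr3 at least 1.43-fold in each library, so these neighbours in the order did not meet.

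Fgfr4, a receptor known from developing muscle, was lowest in the libraries that held least muscle RNA. It was at 2.95, 2.21, 0.648 and 2.46 CPM in the 4 wild-type mice and 4.42, 0.869, 0.859 and 2.07 CPM in the 4 knockouts. The 3 libraries low in muscle RNA were its 3 lowest, between 0.648 and 0.869 CPM, and the other 5 ran from 2.07 to 4.42 CPM, at least 2.38-fold higher. Its log2 change between genotypes was -0.01 with an interval of -1.52 to 1.49, which is too wide to place the change, and the sign turned to 0.36 without those 3 libraries. Of the other 29 tested genes, Etv4 was also lower in all 3 of these libraries, at 6.07 to 6.24 CPM against 6.39 to 7.40 CPM, and the remaining 28 overlapped. The lowest of the other libraries exceeded the highest of these 3 only 1.02-fold for Etv4. How many of all tested genes split in this way was not counted. Fgf6, a ligand gene of muscle from outside the group, was at 0 to 0.158 CPM in these 3 libraries, close to the floor. In the others it was at 0.361 to 1.57 CPM. Of the wider pathway genes taken up below, Map2k2, Phlda3, Ext2 and Xylt2 were also lower in all 3, by margins of 1.04-fold or less. Sos1, Sos2 and Braf were higher in all 3. The part of muscle RNA in these values was not tested.

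**Figure D3:**
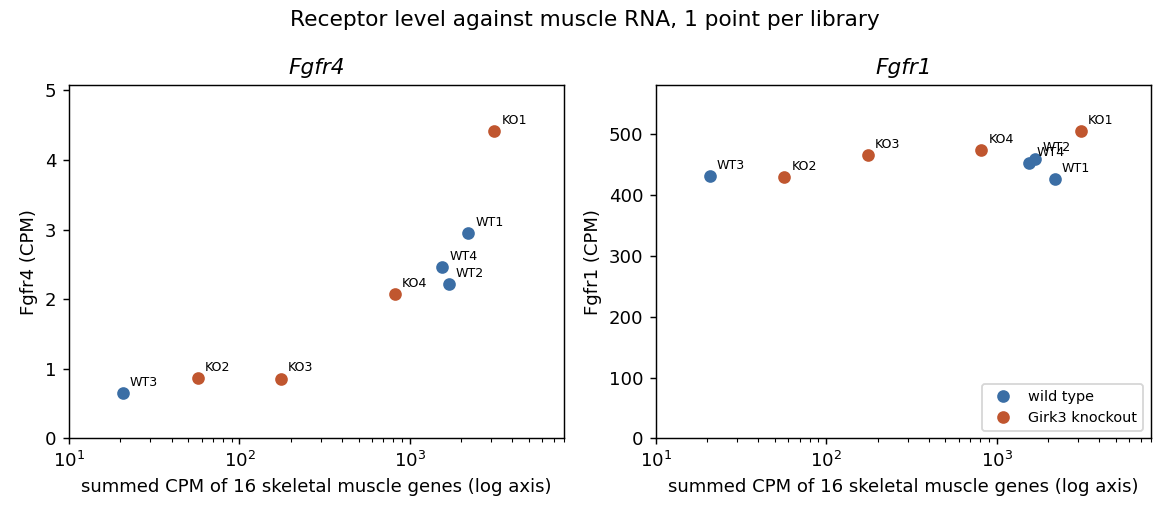
CPM of Fgfr4 and Fgfr1 against the summed CPM of 16 skeletal muscle genes on a log axis, 1 point per library, coloured by genotype. The 3 libraries low in muscle RNA hold the 3 lowest Fgfr4 levels, 0.648 to 0.869 CPM, while Fgfr1 lies between 426 and 506 CPM in every library.

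The Klotho co-receptors, which endocrine FGFs need, were near the counting floor. Kl, the co-receptor of FGF23, held 4 to 27 counts a library, at 0.195 ± 0.103 CPM in the 4 wild-type mice and 0.391 ± 0.273 CPM in the 4 knockouts (SD, n = 4 each; log2 change 0.97 ± 0.58, SE, edgeR adjusted p = 0.416), and the groups overlapped. Klb, the co-receptor of FGF21, held 3 to 19 counts and was below the filter (exact permutation p = 0.743, two-sided, adjusted 0.971), as was Fgfbp1, an extracellular FGF carrier of epithelia, with 0 to 7 counts (exact permutation p = 0.543, adjusted 0.971). The 2 members of the FLRT family of transmembrane proteins, which bind FGF receptors, were abundant. Flrt2 was at 124, 149, 184 and 169 CPM in the 4 wild-type mice and 179, 164, 158 and 143 CPM in the 4 knockouts, with the groups overlapping (log2 change 0.04). Flrt3 was at 18.5, 22.2, 21.8 and 19.2 CPM in the 4 wild-type mice and 27.8, 24.6, 23.1 and 24.0 CPM in the 4 knockouts. Every knockout library of Flrt3 lay above every wild-type library, and the log2 change was 0.29 ± 0.087 (SE), but it did not pass (edgeR adjusted p = 0.128). DESeq2 gave an adjusted p of 0.0472 for Flrt3.

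The adaptor genes did not pass. Frs2, the docking protein that links the receptors to RAS, was at 63.3, 60.2, 68.4 and 69.5 CPM in the 4 wild-type mice and 75.6, 69.3, 66.7 and 59.3 CPM in the 4 knockouts (log2 change 0.05, 95% interval -0.13 to 0.23). Frs3 was at 4.18, 4.06, 3.20 and 4.04 CPM in the 4 wild-type mice and 4.81, 4.28, 3.73 and 4.98 CPM in the 4 knockouts (log2 change 0.20, interval -0.12 to 0.52). Both overlapped between the groups. The antisense gene Frs3os overlaps 16.3% of the exon bases of Frs3 and held at most 23 counts. Tomm6os, on the same strand, overlaps 2.21% and held up to 106 counts, against at least 143 for Frs3.

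Of the 6 Sprouty and Spred genes, whose products restrain RAS and ERK downstream of the receptors and several of which ERK signalling induces, none passed. Spry1 (ENSMUSG00000037211, chromosome 3 from 37639947 to 37644598, plus strand) came closest. It was at 28.7, 31.4, 29.8 and 31.1 CPM in the 4 wild-type mice and 25.1, 24.1, 22.3 and 26.2 CPM in the 4 knockouts, so that every knockout library lay below every wild-type library. The means were 30.3 ± 1.24 and 24.4 ± 1.66 CPM (SD, n = 4 each), a fold of 0.807 with an interval of 0.724 to 0.899 (log2 change -0.31 ± 0.0716, SE, edgeR adjusted p = 0.0557). It passed in DESeq2 (adjusted p = 0.00546), with a covariate for epidermis RNA (0.0234, with 1.74% of genes called lower), without a filter (just under the threshold, with 0.737% called lower) and without knockout replicate 4 (0.0293, with 1.68% called lower). Without the 3 libraries low in muscle RNA its log2 change was -0.24 (adjusted p = 0.571). The gene model Gm42922 on the opposite strand covers 24.4% of the exon bases of Spry1, but held at most 38 counts, against at least 962 for Spry1.

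The paralogues of Spry1 did not share its values. Spry2 was at 11.4 ± 0.944 CPM in the 4 wild-type mice and 13.0 ± 0.985 CPM in the 4 knockouts (SD, n = 4 each), a log2 change of 0.19 with an interval of -0.01 to 0.39, and Spry4 at 20.9 ± 2.53 and 19.8 ± 2.22 CPM, a log2 change of -0.07 with an interval of -0.30 to 0.16. Whether the changes of these genes differ from that of Spry1 was not tested. Spred1, the highest of the 6 per length, was at 117, 141, 142 and 131 CPM in the 4 wild-type mice and 123, 128, 126 and 108 CPM in the 4 knockouts, with the groups overlapping (log2 change -0.13, interval -0.31 to 0.05). Spred2 and Spred3 had log2 changes of -0.08 and 0.04.

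The Etv genes encode the ETS-family transcription factors that FGF signalling typically induces, and Phlda1 is a further gene induced through ERK. None passed, and all 4 overlapped between the groups. Etv5 was at 32.1, 29.4, 34.2 and 33.2 CPM in the 4 wild-type mice and 34.7, 33.7, 34.8 and 31.2 CPM in the 4 knockouts (log2 change 0.06, 95% interval -0.10 to 0.22). Etv4 was at 6.71 ± 0.526 and 6.27 ± 0.153 CPM (log2 change -0.10) and Etv1 at 7.95 ± 0.576 and 9.06 ± 0.774 CPM (0.19; SD, n = 4 each). Phlda1 was at 17.3, 17.8, 20.0 and 15.9 CPM in the 4 wild-type mice and 16.5, 16.9, 15.7 and 12.9 CPM in the 4 knockouts (log2 change -0.19, interval -0.42 to 0.03). The lincRNA gene Gm28592 on the opposite strand covers 33.0% of the exon bases of Phlda1, with at most 4 counts. Per length, Etv5 exceeded Etv4 in every library, by 3.29- to 4.22-fold in wild type and 3.69- to 4.23-fold in knockout.

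Over the 30 tested genes, the 4 libraries of 1 genotype lay wholly on one side of the other in 3 genes: Fgf7 and Spry1, lower in knockout, and Flrt3, higher. That is 10% of the 30, beside 10.6% of all tested genes (4.63% higher, 5.96% lower), so the share was near the background. None of the 35 genes lies on chromosome 1, which carries Kcnj9.

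**Figure D4:**
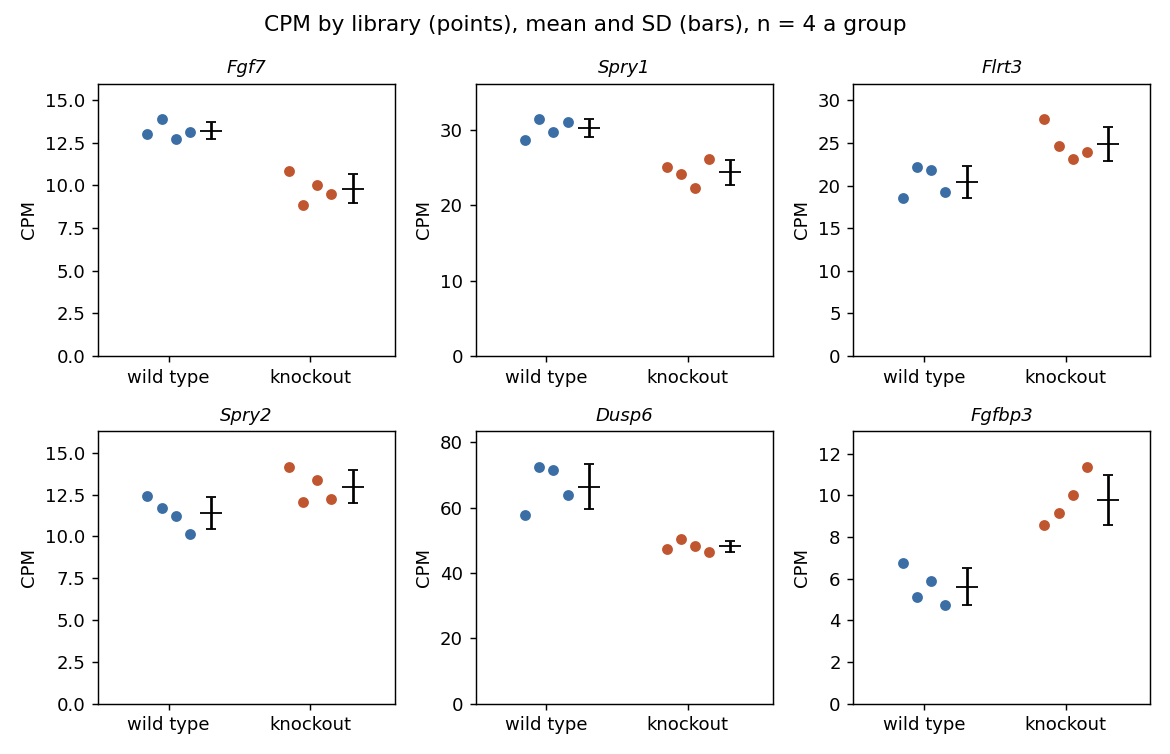
CPM in each library (points) with mean and SD (bars, n = 4 a group) for Fgf7, Spry1, Flrt3 and Spry2, and for Dusp6 and Fgfbp3 from the wider pathway. Wild type and knockout do not overlap in Fgf7, Spry1, Flrt3, Dusp6 and Fgfbp3, and they do in Spry2.

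The promoters of the gene that fell and of a pair of Sprouty paralogues are shown for their base composition, since the Fgf7 window lies low in the group in its share of G or C. Sequences are the 250 bases before the annotated start (RefSeq, GRCm38.p6), read 5′ to 3′ on the strand of the gene, with CpG dinucleotides in capitals. The windows are chr2:126034408-126034657 (plus strand) for Fgf7, chr3:37639697-37639946 (plus strand) for Spry1 and chr14:105896820-105897069 (minus strand) for Spry2.
Fgf7: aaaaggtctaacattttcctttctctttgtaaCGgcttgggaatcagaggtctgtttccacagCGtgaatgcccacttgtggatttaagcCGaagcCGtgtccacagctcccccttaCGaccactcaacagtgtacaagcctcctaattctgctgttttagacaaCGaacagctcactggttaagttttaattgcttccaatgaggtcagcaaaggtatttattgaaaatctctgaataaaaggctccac
Spry1: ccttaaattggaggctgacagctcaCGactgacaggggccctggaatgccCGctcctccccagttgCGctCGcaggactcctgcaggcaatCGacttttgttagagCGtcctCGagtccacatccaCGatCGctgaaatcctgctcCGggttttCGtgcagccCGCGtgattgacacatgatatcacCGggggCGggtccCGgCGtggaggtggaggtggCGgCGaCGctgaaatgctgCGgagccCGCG
Spry2: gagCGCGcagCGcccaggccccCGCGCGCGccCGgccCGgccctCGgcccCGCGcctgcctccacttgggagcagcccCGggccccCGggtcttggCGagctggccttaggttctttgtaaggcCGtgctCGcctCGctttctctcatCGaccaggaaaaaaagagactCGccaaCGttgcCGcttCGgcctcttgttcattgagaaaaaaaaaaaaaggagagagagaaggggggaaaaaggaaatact
The Fgf7 window held 6 CpG and 43.6% G or C, and the Spry1 and Spry2 windows 23 CpG and 62.4% each. Windows were found for 28 of the 35 genes, 37 windows in all, since some genes have several starts. Their median was 18 CpG and 62.4% G or C, against 6 CpG and 52.4% over all 32851 windows. Of the 37, 2 had a G or C share as low as that of Fgf7 or lower, and 9 had as few CpG or fewer, Fgf7 included.

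Motifs of factors downstream of ERK were looked for in the same windows on both strands, and no searched motif contains another. The ETS core CCGGAA was in 6 of the 37 windows (16.2%), those of Fgf5, Fgf12, Fgfr4, Fgfrl1, Flrt2 and Frs2, against 12.03% of all windows. The AP-1 motif TGANTCA was in 2 windows, of Fgf12 and Fgf13 (5.41%, against 6.75%). The cAMP response element TGACGTCA and the CArG box of serum response factor were in none, against 1.55% and 1.47% of all windows. None of the 4 motifs was in the windows of Fgf7, Spry1 or Spry2.

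The rest of the pathway was read from 4 further lists, also chosen with earlier results of these data known. In the RAS and ERK cascade, edgeR called none of 24 genes. Before adjustment 5 had a p under 0.05, beside 17.4% of all tested genes. All 24 had 95% intervals within 1.5-fold, beside 63.7% of all tested genes. The median log2 change of this list was -0.00. Limma-voom also called 0. Of 30 genes for heparan sulfate proteoglycans and the enzymes that build and edit their chains, 28 were tested and edgeR called none (7 had a p under 0.05 before adjustment, beside 17.4% of all tested genes). Limma-voom called 0 of these as well, and DESeq2 called 4, Hs2st1, Ext1 and Sdc4 lower and Gpc2 higher, beside 3.44% of all genes called lower and 2.64% called higher by that tool. Closest was Hs2st1, a heparan sulfate 2-O-sulfotransferase, at 87.1 ± 3.48 CPM in the 4 wild-type mice and 73.0 ± 1.76 CPM in the 4 knockouts (SD, n = 4 each; log2 change -0.25, edgeR adjusted p = 0.0631).

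Among 10 further ligand and carrier genes, 4 were tested and 1 rose, beside 0.445% of all tested genes called higher by edgeR. Fgfbp3, a secreted FGF carrier, was at 6.75, 5.12, 5.90 and 4.72 CPM in the 4 wild-type mice and 8.57, 9.14, 10.03 and 11.4 CPM in the 4 knockouts, with no overlap. It rose 1.74-fold, with an interval of 1.42 to 2.13 (edgeR adjusted p = 0.0175). Leaving out wild-type replicate 2, wild-type replicate 4 or knockout replicate 3 ended the call (highest adjusted p 0.067). It was also lost without the 3 libraries low in muscle RNA, where the log2 change was 0.86 (adjusted p = 0.283), and over all 20 alternatives the log2 change lay between 0.72 and 0.90. Fgf23, the phosphate-regulating hormone of osteocytes, held 10 to 54 counts a library, and its interval, -1.17 to 1.23 on the log2 scale, was too wide to place a change.

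Of 22 other genes of ERK output from outside the group, 21 were tested, 5 fell and none rose in edgeR, DESeq2 and limma-voom alike (the shares of all genes called lower were 0.874%, 3.44% and 0.654%), with a median log2 change of -0.12. The 4 of smallest p were the immediate early genes Fos, Ier3, Egr1 and Ier2, at folds of 0.371, 0.48, 0.59 and 0.624. The fifth, named after its value was seen, was Dusp6, the phosphatase that inactivates ERK and is a standard readout of FGF signalling. Dusp6 was at 57.8, 72.5, 71.5 and 63.9 CPM in the 4 wild-type mice and 47.4, 50.5, 48.4 and 46.6 CPM in the 4 knockouts, with no overlap. It fell by 0.46 ± 0.0793 on the log2 scale (SE, edgeR adjusted p = 0.0181). Leaving out replicate 2 or 3 of either genotype ended the Dusp6 call (highest adjusted p 0.0688). All 5 calls were lost without the 3 libraries low in muscle RNA (adjusted p from 0.0981 to 0.338), where 8 genes were called in all. The log2 changes in those 5 libraries were -1.54 for Fos, -0.78 for Ier3, -0.73 for Egr1, -0.65 for Ier2 and -0.45 for Dusp6, against -1.43, -1.06, -0.76, -0.68 and -0.46 with all 8. None of the 5 genes changed sign in any of the 20 alternatives. With all 8 libraries, before adjustment, 1 of the 21 genes was higher and 8 were lower at a p under 0.05. Over all tested genes the shares were 8.29% higher and 9.11% lower. Whether Dusp6 moved differently from the Sprouty, Spred and Etv genes was not tested. The macrophage sums also moved with these genes, and their part was not tested.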

How the data were processed

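Bulk RNA was sequenced from the calvaria of 4 wild-type and 4 Girk3 knockout mice. The authors deposited raw gene counts, without scaling, under Ensembl IDs. The submitters' processing notes list bcl2fastq 2.17, STAR 2.5.2b, featureCounts of Subread 1.5.2 and build mm10. Which annotation release and strand setting were used is not given in the sources used, so a gene and its antisense partner may share reads. Symbols, positions and merged exon lengths came from GENCODE mouse release M21 (GRCm38), which matched 48970 of 49315 IDs.

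Genes were kept by filterByExpr of edgeR 4.0.16 (minimum count 10, minimum total count 15), scaled by TMM and tested by the quasi-likelihood test in R 4.3.3 (robust fit, two-sided). P-values were adjusted over all tested genes by Benjamini-Hochberg, with a threshold of 0.05. CPM used TMM-scaled totals of the tested genes. RPKM divided CPM by merged exon length, which understates genes with many alternative exons. Intervals are 95% and come from the fit. For genes below the filter, CPM on library totals entered an exact permutation test. The floor of 3 counts covers counting error only, as PCR copies cannot be told from molecules. The edgeR step was checked on simulated counts whose changes were all larger than those of Fgf7 and Spry1. The check therefore does not show how well changes of that size are recovered. Alternatives used DESeq2 1.42.0 and limma 3.58.1, other scalings and filters, a replicate block, covariates for muscle and epidermis RNA, and left-out libraries. Figures were drawn with matplotlib 3.10.9.

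The genes and lists were chosen with earlier results of these data known. Values by library are given for genes called, genes whose groups do not overlap and the 2 highest per length in each role. From the wider lists, called genes are named, up to 4 of smallest p in each direction. Other genes are named after their values were seen. The DESeq2 result for the RAS and ERK cascade list is not reported here. The labels give 4 mice a group, and the p-values measure the spread between these samples. No library was identical to another, and no library was left out of the main comparison.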

Additional observations from a re-analysis of the deposited data

Results flagged for a closer look

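In groups of 4 libraries, 3 of the 60 checked groups of the 30 tested genes held a library far from the other 3, and chance alone gives about 3, or 1 in 20. Wild-type replicate 1 held 12.7 CPM of Fgf1, and the other wild-type libraries 14.8 to 14.95 CPM. Wild-type replicate 2 held 1.85 CPM of Fgf14, and the others 2.41 to 2.44 CPM. Wild-type replicate 3 held 3.20 CPM of Frs3, and the others 4.04 to 4.18 CPM.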

How the results depend on the processing

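The single call among the 30 genes depended on the setting, and the cause was not tested. The number of genes called lower was 1, and it was 0 with library totals, with the replicate block and without the 3 libraries low in muscle RNA, 2 without a filter, with DESeq2 and with the epidermis covariate, and 0 to 2 when 1 library was left out. The number called higher was 1 with DESeq2 and 0 in the other 19 alternatives. Over all tested genes 234 were called, against 355 without a filter, 952 with DESeq2, 126 with the replicate block, 580 with the epidermis covariate, 8 without the 3 libraries (fewer samples) and 57 to 608 with 1 library left out. The median log2 change of the 30 genes was 0.037 without the 3 libraries and -0.07 to 0.02 with 1 left out. The share of calls that were lower was 66.2%, and 46.7%, 82.5%, 53.1%, 78.0%, 78.5% and 49.8% with library totals, the replicate block, the epidermis covariate, and without wild-type replicates 1 and 2 and knockout replicate 4.

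Of 598 gene and setting pairs 559 kept their direction and side of the threshold, and 21 of the 30 genes never turned sign. In the other 9 genes the log2 change, between -0.09 and 0.05 with all libraries and TMM scaling, changed sign. Fgf2 was at 0.012 with library totals, 0.0063 without the 3 libraries and -0.106 to 0.0395 with 1 library left out. Fgfr4 was at 0.021 with library totals, 0.0049 with upper-quartile scaling, 0.069 with the muscle covariate, 0.36 without the 3 libraries and -0.73 to 0.25 with 1 left out. Fgf9 was at -0.015 with the epidermis covariate and -0.045 to 0.21 with 1 left out, and Fgfrl1 at 0.022 without the 3 libraries. With 1 library left out Fgf11 ran from -0.13 to 0.0087, Flrt2 from -0.057 to 0.14, Frs2 from -0.0056 to 0.12, Spry4 from -0.15 to 0.0019 and Spred3 from -0.058 to 0.14.

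Replicate numbers are shared by the groups, but same-numbered libraries deviated together in 2 of 4 pairs (correlation over 0.1), and none of the wild-type libraries correlated best with its own number. With the replicate block Fgf7 had a log2 change of -0.43 (adjusted p = 0.103) and Fgfbp3 of 0.80 (0.061). Depth limits Kl, Klb, Fgf5, Fgf16 and Fgfbp1, with at most 27 counts in a library.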
